A study of Mus musculus with 16 samples.

Results

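Imprinted genes are expressed mainly from the copy inherited from 1 parent, and 32 of them were followed here in mouse mammary organoids of 4 genotypes. The 32 genes were chosen by name, as known imprinted genes of 14 chromosomal domains. Of these, 31 were matched by gene symbol and Nespas, listed under the symbol Gnasas1, by its Ensembl gene identifier. The count table held 55487 genes, of which 24252 had enough counts to be tested, among them 28 of the 32 imprinted genes. The members Dlk1, Asb4, Magel2 and Peg12 were too low to be tested.

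Organoids are small structures grown in culture from tissue cells, here with epidermal growth factor, B27, N-acetyl-cysteine and medium conditioned with Rspo1 and Noggin. The wild-type (WT) organoids (n = 3) came from normal breast. Organoids with a PIK3CA mutation (n = 4), with a HER2 mutation (n = 4) and with both mutations, called the double mutant here (n = 5), came from breast tumors. The series title names the mutations as HER2V777L and PIK3CAH1047R, and the labels used here do not say how they were introduced. Genotype and tissue source therefore cannot be told apart in any comparison with WT, while the comparisons among the 3 mutant groups were all between tumor organoids. Nothing in the labels states that replicates came from separate animals, so the p-values measure only the spread between these samples.

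In an imprinted domain, a control region that is methylated on a single parental copy sets which of the neighbouring genes is transcribed from which chromosome. Many domains pair a growth-promoting gene expressed from the paternal copy with growth-restraining genes expressed from the maternal copy. Several produce a long non-coding RNA, such as Airn or Kcnq1ot1, whose transcription silences protein-coding neighbours on the same chromosome in cis. Many imprinted genes are high in the embryo and the placenta and low in adult tissues. RNA counts sum both parental copies, so the values below are total levels and do not show which copy was read.

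A pair of promoter stretches is shown because Usp29 and Plagl1 were each called in a comparison described below. The first lies between the starts of the protein-coding transcripts of Usp29 and Peg3, which are read in opposite directions and are both paternally expressed (chr7:6730422-6730582, GRCm38.p6, plus strand, 161 bases). It includes the outermost bases of both annotated genes, as Usp29 begins at 6730578 and Peg3 reaches 6730431. The second lies inside the annotated Plagl1 gene (chr10:13060504-13131694), on its own strand and before an internal start (chr10:13090582-13090787, GRCm38.p6, plus strand, 206 bases). Both are RefSeq sequences, and capitals mark CCAAT, a common promoter element, and TGCCGC, a core of the sequence read by ZFP57, a zinc-finger protein that protects methylated imprints, each searched on both strands.
Usp29-Peg3: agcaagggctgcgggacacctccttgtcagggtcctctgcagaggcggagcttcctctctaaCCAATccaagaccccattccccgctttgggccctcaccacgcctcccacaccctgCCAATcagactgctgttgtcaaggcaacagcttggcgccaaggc
Plagl1: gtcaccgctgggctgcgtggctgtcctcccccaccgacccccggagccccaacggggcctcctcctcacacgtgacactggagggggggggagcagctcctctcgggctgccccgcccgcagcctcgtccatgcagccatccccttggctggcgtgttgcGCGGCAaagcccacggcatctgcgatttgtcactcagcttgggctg
The Usp29-Peg3 stretch held 2 matches to CCAAT and 0 to TGCCGC, and the Plagl1 stretch held 1 match to TGCCGC, in the reverse orientation (GCGGCA). Promoter windows of 300 bases, from 250 before to 50 after the start, were found for 26 of the 32 imprinted genes. At least 1 TGCCGC lay in a window of 8 of these 26 genes (30.8%), against 13.1% of all 27025 genes with a window. Counted by window, the share was 22.5% for the imprinted genes and 11.6% over all windows. At least 1 CCAAT lay in a window of 11 of the 26 (42.3%), against 41.1% of all genes. The median number of CpG dinucleotides per window was 11.5 over the 40 windows of the imprinted genes and 7 over all 32851 windows. These matches describe letters in a window and were not tested.

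Total counts per sample ranged from 45545182 to 64168308. Erbb2, the mouse HER2 gene, was at 145 to 171 CPM (counts scaled to a common library size) in WT, 149 to 188 in PIK3CA mutant, 2696 to 4632 in HER2 mutant and 1499 to 2751 in double mutant organoids, so the labels with a HER2 mutation were the samples with high Erbb2 counts. Pik3ca was at 75.9 to 85.7 CPM in WT, 91.6 to 111 in PIK3CA mutant, 61.4 to 74.1 in HER2 mutant and 109 to 122 in double mutant organoids. Across all genes the HER2 mutant samples differed from one another (root mean square difference 1.17 log2 CPM) about as much as samples of different genotypes did (1.13), while the within-group value was 0.733 in WT, 0.705 in PIK3CA mutant and 0.91 in double mutant organoids. Luminal markers, led by the keratins Krt8 and Krt18, summed to 1982 to 2306 CPM in WT, 3008 to 3503 in PIK3CA mutant, 1954 to 2653 in HER2 mutant and 2503 to 4380.1 in double mutant samples, and basal markers such as Krt5 and Krt14 were found in every sample. The luminal markers did not move together. Esr1, for example, was at 29.6 to 44.0 CPM in WT and 16.1 to 19.8 in PIK3CA mutant samples. Of the 9 luminal markers, 1 was called lower and 1 higher in the double mutant against WT by the same test as below. Fibroblast markers (8 genes, among them Col1a1, Pdgfra and Lum) summed to 364 to 1940.3 CPM in WT, 64.1 to 477 in PIK3CA mutant, 35.3 to 612 in HER2 mutant and 27.5 to 49.4 in double mutant samples. Macrophage markers (8 genes, among them Csf1r and C1qa) summed to 534 to 3319 CPM in WT, 14.1 to 37.1 in PIK3CA mutant, 9.11 to 209.8 in HER2 mutant and 12.7 to 67.6 in double mutant samples. All 8 fibroblast and all 8 macrophage markers were lower in double mutant than in WT organoids by the same test as below. In bulk RNA, fewer cells of a type and less RNA per cell cannot be told apart.

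A few imprinted genes changed, in different domains. Airn rose in HER2 mutant and double mutant organoids against WT, Usp29 and Peg10 were higher in the HER2 mutant than in the PIK3CA mutant or double mutant, Sgce was lower in the double mutant than in the HER2 mutant, and Zim1, Ndn, Plagl1 and Impact fell in 1 or more mutant groups against WT. In all, 8 imprinted genes had an adjusted p under 0.05 in at least 1 comparison (edgeR quasi-likelihood test, Benjamini-Hochberg adjustment over all 24252 genes), and calls below are from that test unless another tool or setting is named. Against WT, 1 of the 28 tested imprinted genes was called in the PIK3CA mutant, where 4.52% of all genes were called. The HER2 mutant had 3 of 28 (10.7%) against 10.4% of all genes, and the double mutant 4 of 28 (14.3%) against 11.8% of all genes. Between the double mutant and the HER2 mutant, 3 of 28 were called and all 3 were lower, where 2.5% of all genes were called and 1.47% were called lower. Between the HER2 mutant and the PIK3CA mutant, 3 of 28 were called and all 3 were higher, where 4.41% of all genes were called and 2.21% were called higher. The shares against WT were near the background of all genes. The counts depended on single samples. Without WT replicate 3 there were 0 calls in the HER2 mutant and 1 in the double mutant against WT, and without WT replicate 2 there were 0 in the PIK3CA mutant. Without HER2 mutant replicate 3 there were 5 calls in the HER2 mutant against WT, 7 in the double mutant against the HER2 mutant and 6 in the HER2 mutant against the PIK3CA mutant. The last comparison also had 6 calls without HER2 mutant replicate 2, and 1 without PIK3CA mutant replicate 1 or 3. Against WT, the PIK3CA mutant had 2 calls without WT replicate 1, without PIK3CA mutant replicate 4 or without HER2 mutant replicate 4.

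No imprinted gene was called between the double mutant and the PIK3CA mutant, where 0.672% of all genes were called, although 5 (17.9%) had an unadjusted p under 0.05 in edgeR, beside 12.4% of all genes, and DESeq2 called 1 (Mirg). None was called for the interaction of both mutations, where 1.06% of all genes were called, 10 (35.7%) had an unadjusted p under 0.05 in edgeR, beside 13.6% of all genes, and DESeq2 called 1 (Peg10). The interaction asks whether the double mutant departs from what both single mutants add up to in log2 units. The same unadjusted edgeR count was 15 (53.6%) in the double mutant against the HER2 mutant, beside 17.8% of all genes. It was 10 (35.7%) in the HER2 mutant against the PIK3CA mutant, beside 19.4%. Against WT the shares were 17.9%, 28.6% and 35.7% in the PIK3CA, HER2 and double mutant, beside 16.8%, 25.7% and 27.1% of all genes. The median log2 fold change of the 28 genes was 0.03 in the PIK3CA mutant, 0.32 in the HER2 mutant and -0.10 in the double mutant against WT, beside -0.03, 0.03 and 0.01 over all genes. It was -0.38 for the double mutant against the HER2 mutant and 0.33 for the HER2 mutant against the PIK3CA mutant, beside -0.02 and 0.07 over all genes. For the double mutant against the PIK3CA mutant it was 0.08, beside 0.04, and for the interaction -0.06, beside 0.01. These comparisons share samples, so their values are not independent of one another.

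**Figure D1:**
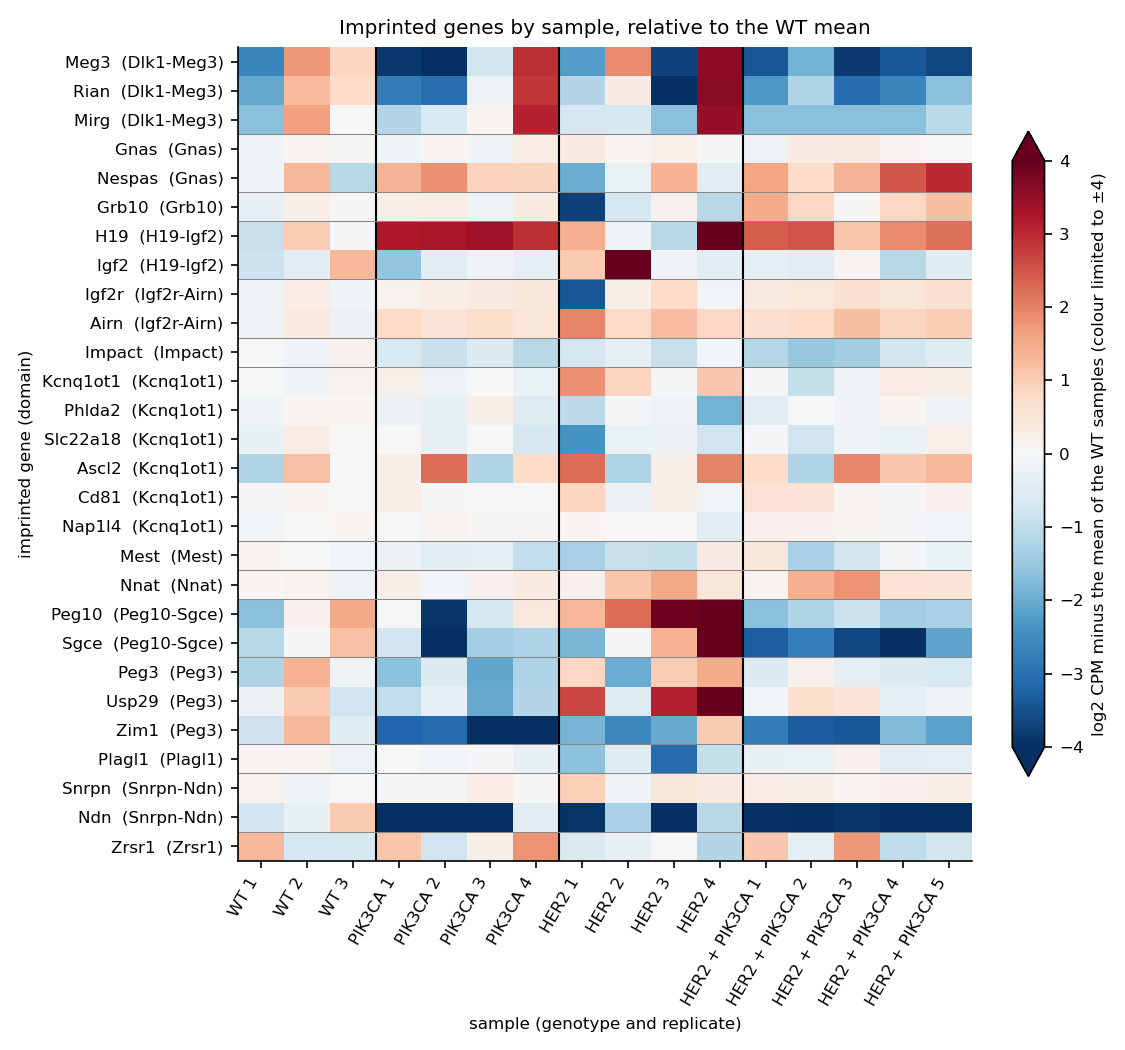
Heat map of the 28 tested imprinted genes (vertical axis, with the domain in parentheses) in each of the 16 samples (horizontal axis), coloured by log2 CPM minus the mean of the WT samples. Differences between samples of a single genotype, such as H19 and Igf2r among the HER2 mutant samples, were as visible as those between genotypes.

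Levels between genes were compared as CPM per kilobase of exonic sequence. The tetraspanin gene Cd81 had the highest mean of the 32 in all 4 groups, at 266 to 328 CPM per kilobase. Igf2r, at 39.5 to 57.3, came next by mean in every group but the HER2 mutant, where H19 had a mean of 71.4 because of 1 sample described below. Magel2 had the lowest mean in WT, at 0.00414 CPM per kilobase. Of the classical fetal growth genes, Igf2 had group means of 0.013 to 0.147 and Dlk1 of 0.00351 to 0.0603 CPM per kilobase.

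Airn, a non-coding RNA read antisense to Igf2r from within its gene (chr17:12741311-12860136, plus strand, GRCm38), was the imprinted gene called in both groups with a HER2 mutation. It was at 18.9, 27.1 and 17.6 CPM in the WT samples and 36.4, 30.1, 34.1 and 29.3 CPM in the PIK3CA mutant samples. Airn was at 80.5, 35.4, 48.6 and 36.6 CPM in the HER2 mutant samples and at 32.2, 34.7, 47.7, 38.1 and 40.7 CPM in the double mutant samples. Each of the 13 mutant samples exceeded the 3 WT samples, and HER2 mutant replicate 1 stood highest. The means were 21.2 ± 5.16 CPM in WT (SD, n = 3), 50.3 ± 21 in HER2 mutant (n = 4) and 38.7 ± 5.98 in double mutant organoids (n = 5). Airn rose in the HER2 mutant against WT (log2 fold change 1.25 ± 0.26, adjusted p = 0.00758, where ± is the SE) and in the double mutant against WT (log2 fold change 0.87 ± 0.25, adjusted p = 0.0305). In the PIK3CA mutant the estimate was in the same direction and missed the threshold (log2 fold change 0.62 ± 0.25, adjusted p = 0.213). The call in the HER2 mutant was lost without WT replicate 3, and the call in the double mutant without any of WT replicates 1 and 3 or double mutant replicates 3 and 5. It held in both without HER2 mutant replicate 1. Fitted on only the samples compared, Airn was called in the PIK3CA mutant (adjusted p = 0.0309) and in the double mutant (0.0155) but not in the HER2 mutant (0.0898), and with the replicate number as a block the call in the double mutant was lost (0.0641), all in edgeR.

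Igf2r encodes the receptor that carries IGF2 to lysosomes for destruction and binds mannose 6-phosphate on lysosomal enzymes (chr17:12682406-12769664, minus strand). Its level was 334, 461 and 344 CPM in WT and 416, 451, 474 and 511 CPM in PIK3CA mutant samples. It was 35, 449.8, 637 and 349 CPM in HER2 mutant and 479, 500.1, 591, 531 and 567 CPM in double mutant samples. HER2 mutant replicate 1 was far below all 15 other samples, and it was also the sample with the most Airn. All 5 double mutant samples were above all WT samples, while the single mutants overlapped WT, and adjusted p was 0.845, 0.968 and 0.582 in the PIK3CA, HER2 and double mutant against WT (edgeR). The annotated exons of Airn and Igf2r share no bases.

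In the span of Airn beyond the Igf2r start, 4 small annotated genes were also looked at, chosen after values had been seen. Gm16574 lies on the strand of Airn, and Gm7162, Gm49958 and Gm49959 lie on the other strand. Reads of Airn could count for these last genes only if counting ignored strand, which is not given in the sources used here. Gm16574, a processed pseudogene, was at 2.55 to 3.66 CPM in WT samples, 15.6, 4.41, 7.43 and 6.43 CPM in HER2 mutant samples and 3.72 to 6.73 CPM in the other mutant samples. HER2 mutant replicate 1 was the highest of the 16 samples for Gm16574, Gm7162, Gm49958 and Gm49959. The flanking genes Map3k4 and Tcp1 were at 84.6 and 110.1 CPM in that sample, within the range of the other samples (54.9 to 109 and 83.9 to 142 CPM).

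**Figure D2:**
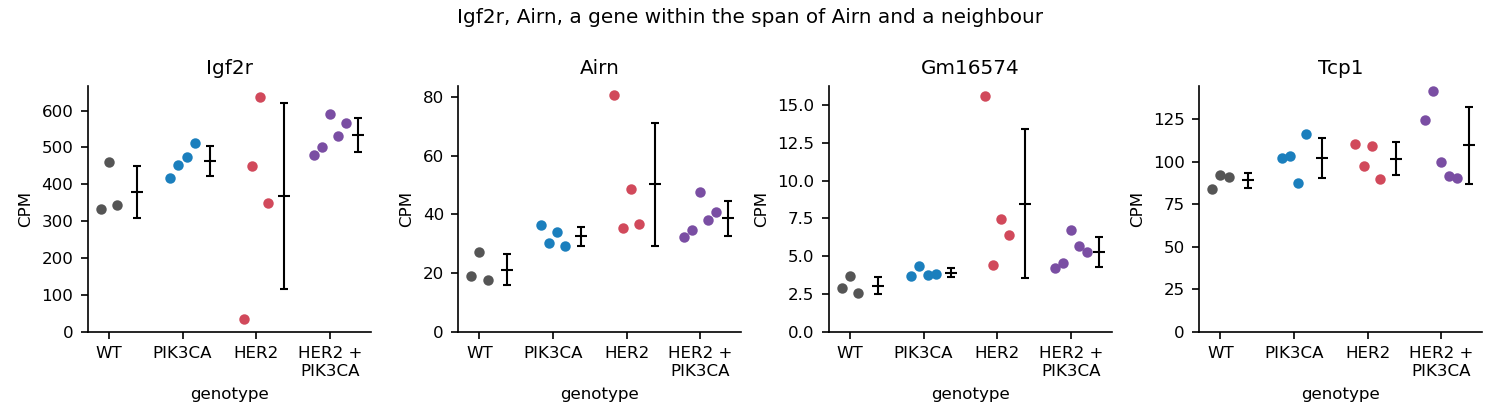
CPM (vertical axes) of Igf2r, Airn, Gm16574 and the neighbour Tcp1 by genotype (horizontal axes). Points are samples and bars the mean ± SD; the HER2 mutant sample with Igf2r at 35.0 CPM has Airn at 80.5 CPM and Tcp1 at 110.1 CPM.

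Grb10 and Slc22a18, which are maternally expressed, were also lowest in that sample. Grb10 encodes an adaptor protein that restrains insulin and growth factor receptor signalling. It was at 3.06, 26.1, 46.9 and 19 CPM in HER2 mutant samples, against 32.7 to 49.9 in WT, 37.6 to 52.7 in PIK3CA mutant and 43 to 116 in double mutant samples. No comparison of Grb10 passed the threshold in edgeR, the closest being double mutant against HER2 mutant (log2 fold change 1.75 ± 0.49, adjusted p = 0.067). That comparison was called by DESeq2 (adjusted p = 0.00671) and by edgeR without the filter on low counts (0.0446). The transporter gene Slc22a18, in the Kcnq1ot1 domain, was at 2.17, 9.58, 9.72 and 6.57 CPM in HER2 mutant samples and at 6.59 to 14.3 CPM in all others. Kcnq1ot1, the non-coding RNA that silences Slc22a18, Phlda2 and their neighbours on the paternal copy, was at 714, 365, 187 and 417 CPM in HER2 mutant samples and at 102 to 244 CPM in all others. HER2 mutant replicate 1 thus held the lowest Igf2r, Grb10 and Slc22a18 and the highest Airn and Kcnq1ot1 of the 16 samples, a grouping noticed after the values were seen. The maternally expressed H19, Meg3, Zim1 and Phlda2 were not lowest in that sample. Cd81 and Ascl2, of the Kcnq1ot1 domain, were at their highest there, at 1394 and 0.377 CPM. The macrophage marker sum of HER2 mutant replicate 1 was 209.8 CPM and its fibroblast marker sum 38.4 CPM, and their part in these values was not tested.

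None of the 6 genes of the Kcnq1ot1 domain passed the edgeR test with the main settings in any comparison. Kcnq1ot1 came closest in the HER2 mutant, with an edgeR adjusted p of 0.0615 against WT, 0.0533 against the PIK3CA mutant and 0.0536 for the double mutant against the HER2 mutant. DESeq2 called all 3 (adjusted p = 0.0262, 0.0141 and 0.00996), as did edgeR with upper-quartile scaling (0.0466, 0.0419 and 0.0396). Kcnq1ot1 overlaps exons of Kcnq1 and of 4 small RNA genes on the other strand, and whether counting used strand is not given in the sources used here. Phlda2, a maternally expressed restrainer of placental growth, ranged from 2.72 to 12 CPM with its lowest value in HER2 mutant replicate 4. Cd81 and the histone chaperone gene Nap1l4 ranged from 654 to 1394 and from 45.8 to 69.5 CPM. Ascl2, a transcription factor of the placenta and of intestinal stem cells, stayed at or below 0.377 CPM in every sample.

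H19, a maternally expressed non-coding RNA, varied widely between samples. It was at 2.88, 11.4 and 5.22 CPM in WT and 51.6, 54.3, 57.6 and 43.5 CPM in PIK3CA mutant samples. H19 was at 15.3, 5.07, 2.56 and 679.8 CPM in the HER2 mutant samples and at 30.2, 32.1, 12, 20.7 and 26 CPM in the double mutant samples. All 4 PIK3CA mutant and all 5 double mutant samples were above all 3 WT samples, while the HER2 mutant samples spanned both sides of the WT range with replicate 4 far above all others. The estimates missed the threshold in edgeR, at 7.98-fold of WT for the PIK3CA mutant (adjusted p = 0.278) and 27.1-fold for the HER2 mutant (adjusted p = 0.0552). The double mutant had log2 fold change 1.90 ± 1.27, adjusted p = 0.364 against WT. The fold of the HER2 mutant came from replicate 4, and without it was 1.18 (edgeR adjusted p = 0.822), while without replicate 1, 2 or 3 H19 was called higher in the HER2 mutant (adjusted p = 0.0382, 0.0249 and 0.0264). It was also called there without the filter on low counts (0.0366). In the fit without HER2 mutant replicate 4, H19 was called higher in both the PIK3CA mutant and the double mutant against WT, and in a fit of only the PIK3CA mutant and WT samples its edgeR adjusted p was 0.00256. The same kind of fit for the double mutant gave 0.0253.

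Igf2, the fetal growth factor that shares enhancers with H19 and is expressed from the paternal copy, had few counted reads. It shares 3596 of its 5723 exonic bases with the protein-coding gene Gm49394 on the same strand. How reads there were counted is not given in the sources used here, so the Igf2 level is uncertain to that extent. Igf2 was at 0.0524, 0.080 and 0.367 CPM in WT and 0.0159, 0.0826, 0.111 and 0.0893 CPM in PIK3CA mutant samples. Igf2 was at 0.302, 2.87, 0.111 and 0.0819 CPM in the HER2 mutant samples and at 0.0887, 0.0839, 0.137, 0.0369 and 0.0778 CPM in the double mutant samples. Only HER2 mutant replicate 2 exceeded 1 CPM, and it was not the sample with high H19. In edgeR no comparison passed the threshold, and the closest were the HER2 mutant against the PIK3CA mutant (log2 fold change 3.49 ± 1.04, adjusted p = 0.0684) and the double mutant against the HER2 mutant (log2 fold change -3.28 ± 0.94, adjusted p = 0.0699), both called by DESeq2 (adjusted p = 0.00981 and 0.0112).

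In the Peg3 domain, Usp29 was called higher in the HER2 mutant against WT. Zim1 was called lower in the PIK3CA mutant and the double mutant against WT. Both genes were called higher in the HER2 mutant than in the PIK3CA mutant, and no single comparison called them in opposite directions. Usp29, a gene related to deubiquitinating enzymes (chr7:6730578-6967219, plus strand), was at 0.245, 0.64 and 0.15 CPM in WT and 0.127, 0.227, 0.0443 and 0.107 CPM in PIK3CA mutant samples. Usp29 was at 2.07, 0.193, 2.76 and 6.39 CPM in the HER2 mutant samples and at 0.266, 0.503, 0.432, 0.222 and 0.253 CPM in the double mutant samples. In HER2 mutant replicates 1, 3 and 4 it was above every sample of the other groups, and replicate 2 lay among them. Usp29 was called higher in the HER2 mutant than in WT (log2 fold change 3.05 ± 0.83, adjusted p = 0.0304) and than in the PIK3CA mutant (log2 fold change 4.47 ± 0.81, adjusted p = 0.00752), and lower in the double mutant than in the HER2 mutant (log2 fold change -3.08 ± 0.68, adjusted p = 0.0283). The call against WT was lost without HER2 mutant replicate 4 or WT replicate 1 or 3, and that against the double mutant without HER2 mutant replicate 4 or double mutant replicate 1, 4 or 5. The call against the PIK3CA mutant held in every fit that left out 1 sample. Without HER2 mutant replicate 4 the log2 fold changes were 2.28 against WT, 3.70 against the PIK3CA mutant and -2.32 for the double mutant against the HER2 mutant, and without WT replicate 2 that against WT was 3.84. Usp29 shares 2582 of its 18078 exonic bases with Zim3 on the other strand, so reads there cannot be told apart without strand.

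Peg3, a paternally expressed zinc-finger gene read from the same start region as Usp29 in the other direction, had the same HER2 mutant samples on top. It was at 47.4, 291 and 98.6 CPM in WT and 35.8, 75.1, 26.4 and 46.6 CPM in PIK3CA mutant samples. Peg3 was at 196, 27.8, 222 and 309 CPM in the HER2 mutant samples and at 75.4, 126, 85.7, 75.3 and 72.2 CPM in the double mutant samples. HER2 mutant replicates 1, 3 and 4 were above all samples but WT replicate 2, which was second highest of the 16. No comparison of Peg3 passed the threshold in edgeR, and the closest was the HER2 mutant against the PIK3CA mutant (log2 fold change 2.04 ± 0.60, adjusted p = 0.0641). It was called by DESeq2 (adjusted p = 0.00722) and by edgeR without the filter on low counts (0.0454).

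Zim1, a maternally expressed zinc-finger gene on the far side of Peg3 (chr7:6671269-6696450, minus strand), was lowest in the PIK3CA mutant. It was at 1.14, 5.0 and 1.45 CPM in WT and 0.191, 0.207, 0.0443 and 0.0893 CPM in PIK3CA mutant samples. Zim1 was at 0.528, 0.308, 0.467 and 4.2 CPM in the HER2 mutant samples and at 0.266, 0.168, 0.157, 0.573 and 0.428 CPM in the double mutant samples. All PIK3CA mutant and all double mutant samples were below all WT samples, and HER2 mutant replicate 4 was within the WT range. Zim1 fell in the PIK3CA mutant (log2 fold change -4.21 ± 0.91, adjusted p = 0.0134) and in the double mutant against WT (log2 fold change -2.97 ± 0.78, adjusted p = 0.0217). It was higher in the HER2 mutant than in the PIK3CA mutant (log2 fold change 3.33 ± 0.87, adjusted p = 0.0407), a call lost in 7 of the 16 fits that left out 1 sample, among them those without HER2 mutant replicate 4 and without each of the 4 PIK3CA mutant samples. Without HER2 mutant replicate 4 its log2 fold change was 1.68. Both calls against WT were lost without WT replicate 2, the WT sample with the most Zim1, where the log2 fold change was -3.25 (edgeR adjusted p = 0.0589) in the PIK3CA mutant and -2.01 (0.145) in the double mutant. The call of the double mutant was also lost without double mutant replicate 2. WT replicate 2 had a fibroblast marker sum of 1940.3 CPM, and WT replicate 3 had a sum of 1745 CPM with Zim1 at 1.45 CPM. The part of fibroblast markers in Zim1 was not tested.

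**Figure D3:**
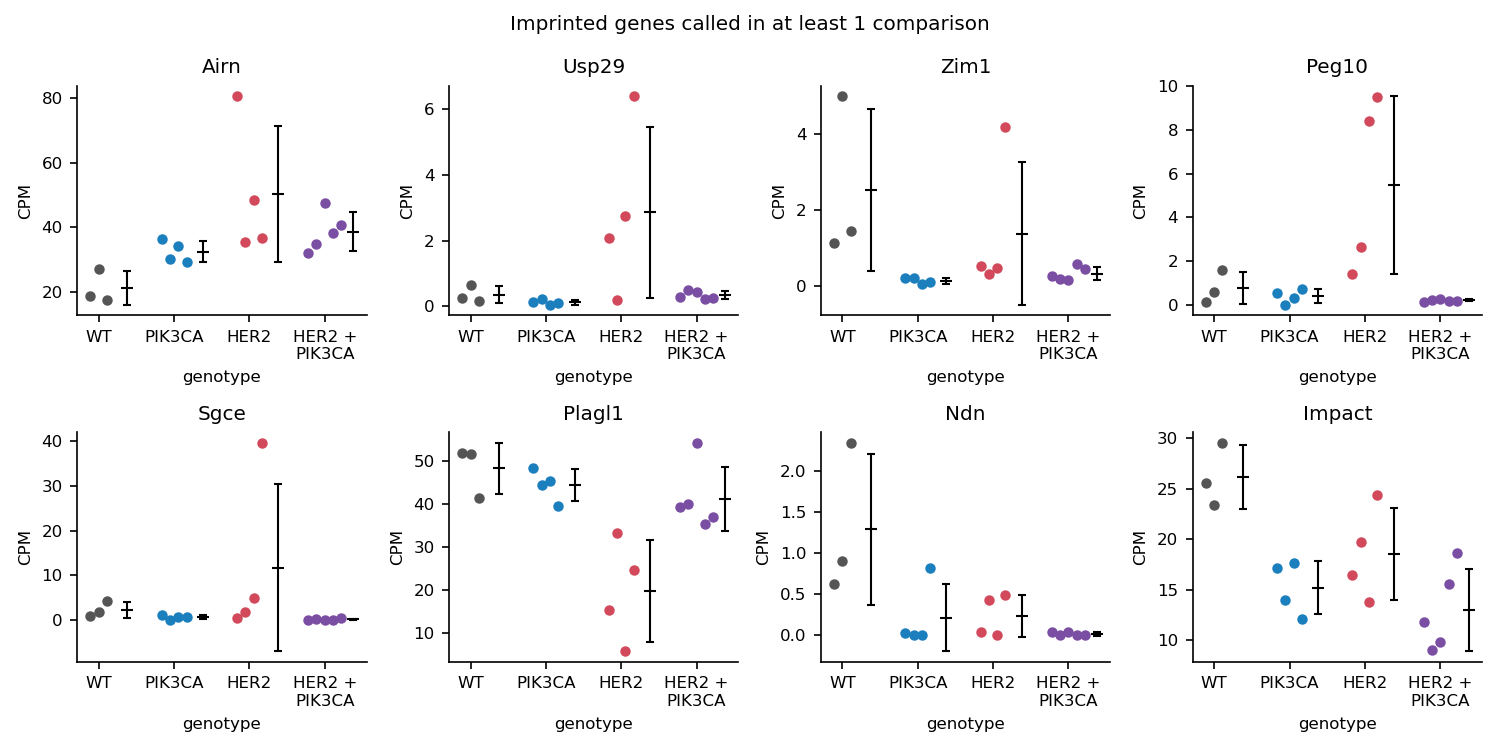
CPM (vertical axes) by genotype (horizontal axes) of the 8 imprinted genes called in at least 1 comparison. Points are samples and bars the mean ± SD (n = 3, 4, 4 and 5); HER2 mutant samples spread widely for Usp29, Zim1, Peg10 and Sgce.

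Peg10 and Sgce, which start side by side on chromosome 6 and are read in opposite directions, were both lower in the double mutant than in the HER2 mutant. Peg10 is a paternally expressed gene derived from a retrotransposon and needed for placental development (chr6:4747306-4760517, plus strand). It was at 0.14, 0.60 and 1.58 CPM in WT and 0.541, 0, 0.31 and 0.732 CPM in PIK3CA mutant samples. Peg10 was at 1.4, 2.64, 8.39 and 9.5 CPM in the HER2 mutant samples and at 0.142, 0.21, 0.275, 0.185 and 0.194 CPM in the double mutant samples. All 4 HER2 mutant samples were above all PIK3CA mutant and all double mutant samples, and replicates 3 and 4 were also well above WT. Peg10 was higher in the HER2 mutant than in the PIK3CA mutant (log2 fold change 3.77 ± 0.86, adjusted p = 0.0228) and lower in the double mutant than in the HER2 mutant (log2 fold change -4.75 ± 0.84, adjusted p = 0.00899). The second call held in every fit that left out 1 sample, and the first was lost without PIK3CA mutant replicate 1 or 3. The double mutant counts were 8, 10, 14, 10 and 10 reads.

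Sgce encodes epsilon-sarcoglycan, a membrane protein of the dystrophin-associated complex (chr6:4674350-4747207, minus strand). Its level was 0.857, 1.8 and 4.34 CPM in WT and 1.1, 0.0207, 0.709 and 0.786 CPM in PIK3CA mutant samples. Sgce was at 0.509, 1.81, 5.05 and 39.6 CPM in the HER2 mutant samples and at 0.16, 0.252, 0.118, 0.0369 and 0.408 CPM in the double mutant samples. The double mutant samples were below all HER2 mutant and all WT samples, and HER2 mutant replicate 4 was the highest. Sgce was called lower in the double mutant than in the HER2 mutant (log2 fold change -5.90 ± 1.17, adjusted p = 0.0171), a call that held in every fit that left out 1 sample, with a log2 fold change of -3.65 without HER2 mutant replicate 4. Against WT the double mutant had log2 fold change -3.57 ± 1.14, adjusted p = 0.0527 in edgeR and an adjusted p of 0.0236 in DESeq2. Fibroblast markers summed to 38.4, 313, 35.3 and 612 CPM in the HER2 mutant samples and to 38.9, 27.5, 47.4, 49.4 and 36.1 CPM in the double mutant samples, and their part in the Sgce values was not tested.

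Near Peg10, the imprinted gene Ppp1r9a (neurabin, an actin-binding protein; named after its values were seen) was at 7.07 ± 1.92 CPM in WT, 7.74 ± 3.5 in PIK3CA mutant, 39.4 ± 18.3 in HER2 mutant and 9.68 ± 6.86 in double mutant organoids (SD, n = 3, 4, 4 and 5). It was higher in the HER2 mutant than in WT (log2 fold change 2.48 ± 0.67, adjusted p = 0.0287) and than in the PIK3CA mutant (log2 fold change 2.35 ± 0.59, adjusted p = 0.037). Asb4, further along the same domain, was at 0.105, 0.46 and 0.601 CPM in WT and at or below 0.0445 CPM in every mutant sample, and it was too low to be tested with the filter on low counts. Without that filter Asb4 was called lower against WT in all 3 mutant groups, with adjusted p of 0.0208, 0.0482 and 0.00236 in the PIK3CA, HER2 and double mutant.

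**Figure D4:**
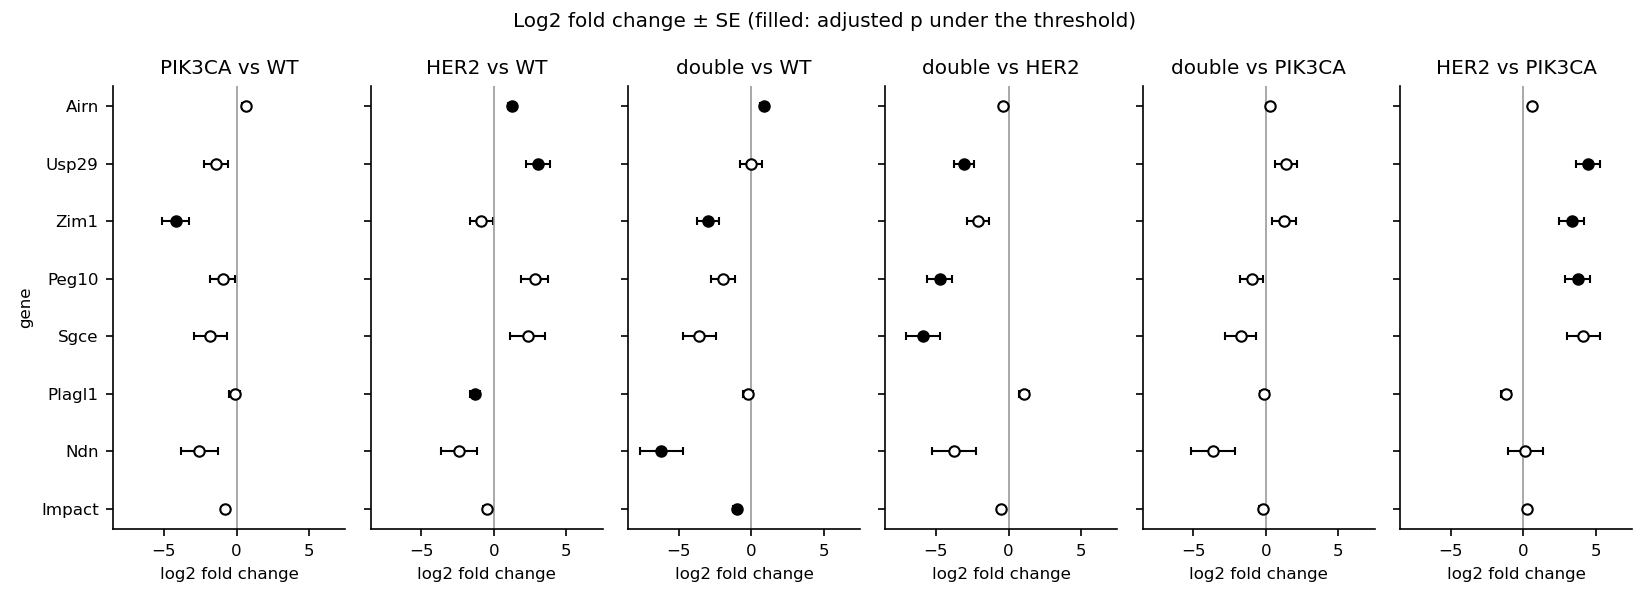
Log2 fold change ± SE (horizontal axes) of the 8 called imprinted genes (vertical axis) in the 6 pairs of genotypes; filled points have an adjusted p under 0.05. Peg10, Sgce and Usp29 are filled in the double mutant against the HER2 mutant, and no point is filled in the double mutant against the PIK3CA mutant.

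Plagl1, a paternally expressed zinc-finger transcription factor that restrains cell division and regulates other imprinted genes, was lowest in the HER2 mutant. It was at 51.8, 51.6 and 41.5 CPM in WT and 48.5, 44.5, 45.5 and 39.5 CPM in PIK3CA mutant samples. Plagl1 was at 15.4, 33.3, 5.63 and 24.6 CPM in the HER2 mutant samples and at 39.4, 40.0, 54.3, 35.3 and 37 CPM in the double mutant samples. All 4 HER2 mutant samples were below all 12 others. Plagl1 fell in the HER2 mutant against WT (log2 fold change -1.29 ± 0.37, adjusted p = 0.0363), from 48.3 ± 5.91 (SD, n = 3) to 19.7 ± 11.9 CPM (SD, n = 4). The comparisons with the PIK3CA mutant (log2 fold change -1.17 ± 0.35, adjusted p = 0.0658) and of the double mutant with the HER2 mutant (log2 fold change 1.06 ± 0.33, adjusted p = 0.0972) missed the threshold in edgeR. DESeq2 called both (adjusted p = 0.0195 and 0.0326), and edgeR without the filter on low counts called the first (0.0481). The call against WT was lost without any 1 of the 3 WT samples or HER2 mutant replicate 1. In the stretch shown above, the Plagl1 sequence was the one with a TGCCGC match.

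Impact, a paternally expressed gene whose protein limits the stress kinase GCN2, was highest in WT. It was at 25.6, 23.4 and 29.5 CPM in WT and 17.1, 14, 17.7 and 12.1 CPM in PIK3CA mutant samples. Impact was at 16.4, 19.7, 13.8 and 24.4 CPM in the HER2 mutant samples and at 11.8, 9.0, 9.85, 15.6 and 18.6 CPM in the double mutant samples. All PIK3CA mutant and all double mutant samples were below all WT samples, and the HER2 mutant samples overlapped WT. Impact fell in the double mutant against WT (log2 fold change -1.01 ± 0.24, adjusted p = 0.011), from 26.2 ± 3.12 (SD, n = 3) to 13 ± 4.06 CPM (SD, n = 5), a call lost without WT replicate 3. The PIK3CA mutant had log2 fold change -0.78 ± 0.25, adjusted p = 0.0969 and the HER2 mutant log2 fold change -0.49 ± 0.25, adjusted p = 0.229 against WT. In an edgeR fit of only the PIK3CA mutant and WT samples, Impact was called lower (adjusted p = 0.00981).

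Ndn and its neighbours of the Snrpn domain on chromosome 7 were low. Ndn (necdin), a paternally expressed growth suppressor of the MAGE family, had 36, 45 and 140 reads in the WT samples and 2, 0, 0 and 46 in the PIK3CA mutant samples. The HER2 mutant samples had 2, 22, 0 and 24 reads and the double mutant samples 2, 0, 2, 0 and 0. All HER2 mutant and all double mutant samples were below all WT samples in CPM, and PIK3CA mutant replicate 4 was within the WT range. Ndn was called lower in the double mutant against WT (edgeR adjusted p = 0.0136), with means of 0.0149 ± 0.0205 (SD, n = 5) and 1.29 ± 0.917 CPM (SD, n = 3). Its fitted fold rests on few reads and is not given. The call was lost without WT replicate 3. In the double mutant against WT all 8 fibroblast markers were also called lower, with the collagen gene Col3a1 at most 0.50 CPM and Dpt at 0 in all 5 samples, and their part in the Ndn values was not tested.

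Peg12 and Magel2, also paternally expressed genes of this domain, were hardly detected. Peg12 was at 0.122 to 0.40 CPM in WT and 0 to 0.173 CPM in mutant samples, and Magel2 at 0 to 0.040 CPM over the 16 samples. Peg12 was too low to be tested with the filter on low counts, and it was called lower in the double mutant against WT without the filter (edgeR adjusted p = 0.0203) and by DESeq2 (0.00495). Snrpn, which encodes a protein of the splicing machinery, was at 3.6 to 4.48 CPM in WT, 3.88 to 4.94 in PIK3CA mutant, 3.64 to 7.85 in HER2 mutant and 4.4 to 5.02 in double mutant samples. It passed the edgeR threshold in no comparison.

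The highest values of the Dlk1-Meg3 domain lay in single samples of different genotypes. Meg3, a maternally expressed non-coding RNA (chr12:109541001-109571726, plus strand), was at 0.28, 6.4 and 3.49 CPM in WT and 0.0954, 0.0207, 1.13 and 14.8 CPM in PIK3CA mutant samples. Meg3 was at 0.377, 7.15, 0.111 and 23.3 CPM in the HER2 mutant samples and at 0.142, 0.483, 0.0981, 0.148 and 0.117 CPM in the double mutant samples. PIK3CA mutant replicate 4 and HER2 mutant replicate 4 were the highest, and all double mutant samples were under 0.5 CPM. The fibroblast marker sum was 364, 1940.3 and 1745 CPM in the WT samples and 73, 64.1, 181 and 477 CPM in the PIK3CA mutant samples, and its values in the HER2 and double mutant samples are given above. The 4 mutant samples with Meg3 above 1 CPM were the 4 mutant samples with the highest fibroblast marker sums, and their part in Meg3 was not tested. No comparison of Meg3 passed the threshold in edgeR with all 16 samples, the closest being the double mutant against the HER2 mutant (log2 fold change -5.29 ± 1.64, adjusted p = 0.0948). DESeq2 called that comparison (adjusted p = 0.00881), and an edgeR fit of only the double mutant and WT samples called Meg3 lower in the double mutant (0.012).

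Rian and Mirg, non-coding RNAs that follow Meg3 on the same strand and host small nucleolar RNAs and microRNAs, had their highest values in the same pair of samples. In PIK3CA mutant replicate 4 Rian was at 5.79 and Mirg at 0.982 CPM, and in HER2 mutant replicate 4 at 9.76 and 1.31 CPM. The other 14 samples did not exceed 1.90 CPM for Rian or 0.340 CPM for Mirg, and both values were in WT replicate 2. Dlk1, the paternally expressed Notch-family ligand of this domain, had 0, 2 and 10 reads in WT, 0, 1, 1 and 74 in PIK3CA mutant, 0, 2, 0 and 2 in HER2 mutant and 2, 13, 0, 0 and 1 in double mutant samples. Its highest value, 1.32 CPM, was again in PIK3CA mutant replicate 4, and Dlk1 was too low to be tested.

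**Figure D5:**
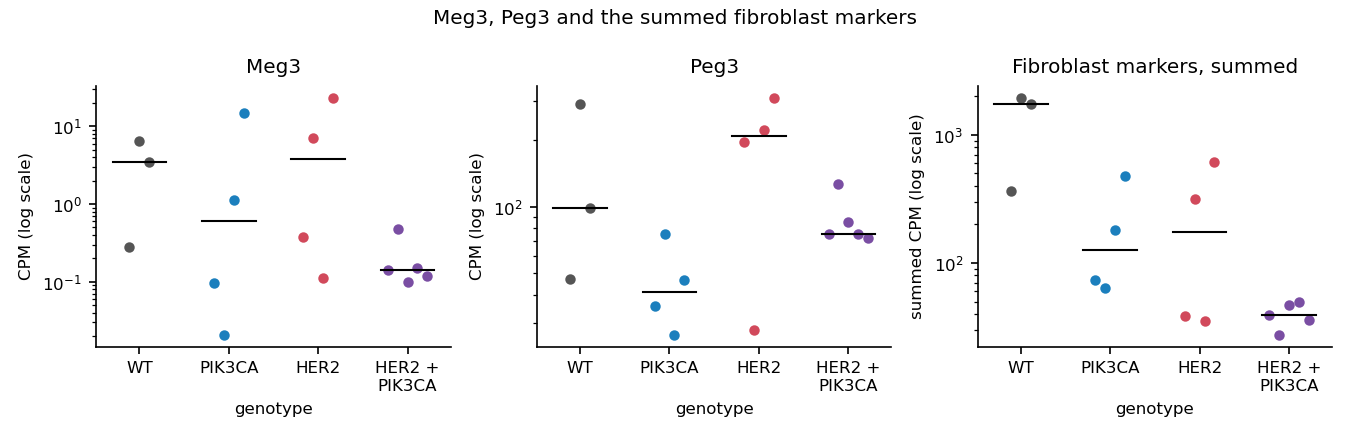
Meg3 and Peg3 (CPM) and the sum of the 8 fibroblast markers (summed CPM), on log-scaled vertical axes, by genotype (horizontal axes). Points are samples and lines medians; the 5 double mutant samples lie low for both Meg3 and the marker sum, while Peg3 does not follow the marker sum in the HER2 mutant samples.

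The Gnas domain, Nnat, Mest and Zrsr1 held no edgeR call. DESeq2 called Nespas higher in the double mutant than in the HER2 mutant (adjusted p = 0.0393) and Nnat higher in the double mutant than in WT (0.0338). Gnas, which encodes the stimulatory G protein alpha subunit, ranged from 38.7 to 56.8 CPM. Nespas, a non-coding RNA antisense to Gnas, was at 0.10 to 0.70 CPM in WT and 0.462 to 2.35 CPM in double mutant samples (log2 fold change 1.83 ± 0.78, adjusted p = 0.14), and it shares exonic bases with Gnas on the other strand. Nnat (neuronatin), a paternally expressed membrane protein gene, was at 8.99, 9.43 and 7.36 CPM in WT, 9.71, 18.4, 24.3 and 12 in HER2 mutant and 9.52, 23.1, 29.6, 12.7 and 12.6 in double mutant samples, all above WT, with log2 fold change 1.03 ± 0.36, adjusted p = 0.0759 for the double mutant against WT. Mest, a paternally expressed gene of the hydrolase family, ranged from 2.39 to 8.17 CPM.

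Zrsr1 is a paternally expressed gene with a splicing-factor-like product inside an intron of Commd1. Zrsr1 had a high and a low set of samples within WT, the PIK3CA mutant and the double mutant, and only low samples in the HER2 mutant. It was at 188, 46.9 and 47.8 CPM in WT and 163, 43.3, 89.3 and 263 CPM in PIK3CA mutant samples. Zrsr1 was at 50.4, 60.7, 76.4 and 33.1 CPM in the HER2 mutant samples and at 159.9, 58.2, 247, 37.4 and 45.5 CPM in the double mutant samples. WT replicate 1, PIK3CA mutant replicates 1 and 4 and double mutant replicates 1 and 3 were between 159.9 and 263 CPM, and no other sample was above 89.3 CPM. Its host gene Commd1 was at 2.92 to 6.26 CPM in all 16 samples.

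Beyond the 32, 50 other imprinted genes were found in the count table and 38 were tested. Dhcr7, the last enzyme of cholesterol synthesis, rose from 27.4 ± 1.44 CPM in WT (SD, n = 3) to 79.4 ± 37.7 in HER2 mutant (n = 4; log2 fold change 1.53 ± 0.32, adjusted p = 0.00799) and was also higher in the double mutant (log2 fold change 1.87 ± 0.32, adjusted p = 0.00133). Tspan32, a tetraspanin gene of blood cells, fell in all 3 mutant groups against WT, with the largest change in the PIK3CA mutant (log2 fold change -3.58 ± 0.58, adjusted p = 0.00215). Macrophage marker sums were also lower in every mutant sample than in WT, and their part in the Tspan32 values was not tested. Gatm, an enzyme of creatine synthesis, fell in the double mutant against WT (log2 fold change -4.67 ± 0.97, adjusted p = 0.00535). In the double mutant against WT, 2 of these 38 genes rose and 4 fell (15.8% called, beside 11.8% of all genes), and their median log2 fold change was 0.03, beside 0.01 over all genes.

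Genes that read or keep imprint marks included 17 tested of 20 found. Against WT, 4 rose and 1 fell in the HER2 mutant (29.4%, beside 10.4% of all genes), 3 rose and 1 fell in the double mutant (23.5%, beside 11.8%) and 1 rose in the PIK3CA mutant (5.88%, beside 4.52%). Tet2, an enzyme that oxidises methylated cytosine, rose from 108 ± 12.1 CPM in WT (SD, n = 3) to 184 ± 7.85 in PIK3CA mutant organoids (n = 4; log2 fold change 0.78 ± 0.13, adjusted p = 0.0031). It also rose in the HER2 mutant (log2 fold change 0.47 ± 0.13, adjusted p = 0.0368) and the double mutant (log2 fold change 0.44 ± 0.13, adjusted p = 0.0367), and its interaction was below 0 (log2 fold change -0.81 ± 0.18, adjusted p = 0.0407), so the double mutant lay below what the single mutants add up to. Hells, a chromatin remodeller needed for DNA methylation, rose in the double mutant against WT (log2 fold change 1.28 ± 0.28, adjusted p = 0.00711). Dnmt1, the methyltransferase that copies methylation after replication, fell from 169 ± 18.1 (SD, n = 3) to 119.9 ± 12 CPM (SD, n = 5) in the double mutant (log2 fold change -0.50 ± 0.11, adjusted p = 0.00929) and also in the HER2 mutant (log2 fold change -0.49 ± 0.12, adjusted p = 0.0175). The median log2 fold change of the 17 against WT was 0.04 in the PIK3CA mutant, 0.29 in the HER2 mutant and 0.11 in the double mutant, beside -0.03, 0.03 and 0.01 over all genes. Between mutant groups it was -0.01 for the double against the HER2 mutant, -0.02 for the double against the PIK3CA mutant and 0.01 for the HER2 against the PIK3CA mutant.

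Around Igf2 and Igf2r, 16 genes of the insulin-like growth factor axis were tested of 18 found. In each mutant group against WT, 0 rose and 2 fell (12.5%, beside 4.52%, 10.4% and 11.8% of all genes in the PIK3CA, HER2 and double mutant). In the double mutant against the HER2 mutant 2 were higher and 1 lower (18.8%, beside 2.5%), and in the HER2 mutant against the PIK3CA mutant 2 were lower (12.5%, beside 4.41%). In the double mutant against the PIK3CA mutant 1 was lower (6.25%, beside 0.672%). Igf1, the circulating growth factor, fell from 40.9 ± 31 CPM in WT (SD, n = 3) to 2.5 ± 0.561, 1.95 ± 1.73 and 2.05 ± 1.55 CPM in the PIK3CA, HER2 and double mutant (SD, n = 4, 4 and 5), a fall called in all 3 groups, with log2 fold change -4.32 ± 0.66, adjusted p = 0.000667 in the double mutant against WT. Its interaction was above 0 (log2 fold change 4.10 ± 0.92, adjusted p = 0.0443), the only call of the 16 genes for the interaction. Fibroblast and macrophage markers were also lower in the double mutant than in WT, and their part in the Igf1 values was not tested. The binding protein genes differed among the mutants. Igfbp3 was at 111 ± 54.1 in PIK3CA mutant, 6.45 ± 4.48 in HER2 mutant and 95.7 ± 47.5 CPM in double mutant samples (n = 4, 4 and 5, SD), higher in the double mutant than in the HER2 mutant (log2 fold change 3.89 ± 0.61, adjusted p = 0.0054). Igfbp2 was at 21.9 ± 7.86, 1.29 ± 1.46 and 27 ± 24.8 CPM in the same groups (log2 fold change 4.40 ± 0.90, adjusted p = 0.0194 for the double mutant against the HER2 mutant).

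The reads of 15 of the 32 imprinted genes fall partly on exonic bases shared with another annotated gene, 13 of them on the other strand, among them Mest with Copg2, Zrsr1 with Commd1 and Gnas with Nespas. Their levels are uncertain to that extent.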

How the data were processed

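RNA was measured in 16 mouse mammary organoid samples. Per the labels' protocols, total RNA was purified on columns and turned into libraries with the SMARTer mRNA-seq chemistry. The submitters' processing notes name bcl2fastq 2.20, STAR 2.0.4b, Subread, featureCounts 1.4.5, DESeq2 1.33.5 and the mm10 build, without their roles. The annotation and strandedness are not given in the sources used here. The authors deposited raw counts of reads, 1 whole number for each Ensembl gene and sample, which were used unchanged. Of 55774 entries, 287 repeated an identifier and were dropped. The authors' normalized table was not used.

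Groups follow the labelled genotype. Genes were kept with filterByExpr, scaled with TMM factors and tested with genotype as sole factor, in 1 fit over the 16 samples, by the quasi-likelihood test of edgeR 4.0.16 in R 4.3.3 (two-sided, Benjamini-Hochberg over 24252 genes, called at an adjusted p under 0.05). The SE is the absolute log2 fold change divided by the square root of F. CPM are counts scaled by library size and TMM factor; a prior count of 2 was added for log2 CPM. The test was also run on simulated counts with known changes, and that outcome is not given here. Total counts of 45545182 to 64168308 per sample set the precision, and genes of a few reads are the least certain.

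Positions, exon lengths, GC content and overlaps come from GENCODE M21 (GRCm38, the same assembly as mm10), and promoters from RefSeq GRCm38.p6. The members and lists were chosen with earlier results of these data known. Every member may be named. By rule, values in every sample are given for members called in at least 1 comparison and for H19, Igf2, Igf2r, Airn, Dlk1 and Meg3, and from each list the 3 called genes of lowest adjusted p. Beyond that rule, Peg3 and Zrsr1 in every sample, and Grb10, Slc22a18, Kcnq1ot1 and Nnat by sample in some groups, were added with their values known. The CCAAT motif and the neighbouring genes were added after values were seen. Alternatives were other scaling, no filter, DESeq2 1.42.0, a replicate block, a GC and length offset, only the samples compared and leaving out each sample.

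Markers of 8 cell types were summed. Endothelial markers summed to at most 4.6 CPM and adipocyte markers to at most 1.0 CPM in any sample. Schwann markers summed to 716 to 845 CPM in WT, 773 to 1129 in PIK3CA mutant, 467 to 1088 in HER2 mutant and 505 to 688 in double mutant samples, mostly from Sox10 and Mbp. Pericyte markers summed to 162 to 217, 413 to 513, 198 to 313 and 207 to 385 CPM in the same groups, mostly from Notch3. Of the 4 pericyte markers, 3 were called lower and 1 higher in the double mutant against WT (edgeR). Basal markers summed to 473 to 1019, 502 to 1375, 260.2 to 972 and 555 to 1021 CPM in the same groups.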

Additional observations from a re-analysis of the deposited data

Results flagged for a closer look

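In 15 of 84 groups of 4 or 5 samples, 1 sample stood apart from the rest of its genotype. Its gap to the nearest sample exceeded Dixon's critical value of the group's range. For independent, normally distributed values this happens in about 1 in 20 groups. CPM were not shown to be normally distributed, and neighbours such as Meg3, Rian and Mirg shared outlying samples. The 15 groups therefore cannot be read against that rate. HER2 mutant replicate 4 gave 6 of these values. It had H19 at 679.8 CPM against 2.56 to 15.3 in the other HER2 mutant samples, Zim1 at 4.20 against 0.308 to 0.528, and Sgce at 39.6 against 0.509 to 5.05. In the same sample Mest was at 7.45 against 2.41 to 3.14, Rian at 9.76 against 0 to 0.964, and Mirg at 1.31 against 0 to 0.0385 CPM. PIK3CA mutant replicate 4 gave 4, with Meg3 at 14.8 CPM against 0.0207 to 1.13 in the other PIK3CA mutant samples, Rian at 5.79 against 0.0620 to 0.664, Mirg at 0.982 against 0.0159 to 0.0886, and Ndn at 0.822 against 0 to 0.0318. HER2 mutant replicate 2 had Igf2 at 2.87 CPM against 0.0819 to 0.302.

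Among the double mutant samples, replicate 2 had Peg3 at 126.0 CPM against 72.2 to 85.7 and Meg3 at 0.483 against 0.0981 to 0.148. Replicate 3 had Plagl1 at 54.3 CPM against 35.3 to 40.0, and replicate 5 had Mirg at 0.0194 CPM, from 1 read, against 0 in the other 4.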

How the results depend on the processing

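The 14 calls of single imprinted genes kept their direction in every alternative tried, and all 14 stayed past the threshold with median-of-ratios or upper-quartile scaling, without the filter on low counts, with the GC and length offset and with DESeq2. Fitted on only the samples compared, 7 of the 14 stayed past it, and the cause of the other losses was not tested. The number of imprinted genes called, in the order PIK3CA, HER2 and double mutant against WT, double mutant against HER2 mutant and HER2 mutant against PIK3CA mutant, was 1, 3, 4, 3 and 3. Without the filter it was 2, 5, 7, 5 and 7, with only the samples compared 4, 0, 8, 1 and 1, and with DESeq2 2, 6, 8, 10 and 8. DESeq2 also called 1 in the double mutant against the PIK3CA mutant and 1 for the interaction, where edgeR called 0. The cause of these differences was not tested.

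With the replicate block the number was 1 in the HER2 mutant against WT, 0 in the double mutant against the HER2 mutant and 1 in the HER2 mutant against the PIK3CA mutant, and 6 of the 14 calls stayed past the threshold. The labels do not state whether same-numbered samples are paired. Deviations of same-numbered samples from their genotype mean correlated at 0.0711 to 0.273 in the double mutant against the HER2 mutant (mean 0.157, beside -0.0407 for other pairs). The range was 0.0390 to 0.0455 in the PIK3CA mutant against WT (mean 0.0425, beside -0.0142). In the HER2 mutant against WT it was -0.163 to 0.0109 (mean -0.0522, beside 0.0172).

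Leaving out 1 sample at a time, the number called ranged from 0 to 2, 0 to 5, 1 to 6, 2 to 7 and 1 to 6 in the order above, and was 0 throughout for the double mutant against the PIK3CA mutant and for the interaction. Over all genes, leaving out 1 sample gave 396 to 1431 calls of 1096 in the PIK3CA mutant against WT, 733 to 2818 of 2518 in the HER2 mutant and 1173 to 3601 of 2850 in the double mutant. It gave 256 to 975 of 606 in the double mutant against the HER2 mutant, 17 to 324 of 163 against the PIK3CA mutant, 427 to 1207 of 1069 in the HER2 against the PIK3CA mutant and 54 to 382 of 257 for the interaction.

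Counts over all genes beyond 1.5 times the stated ones were, with only the samples compared, 4136 (PIK3CA mutant against WT), 541 (HER2 mutant against WT), 37 (double against HER2 mutant), 364 (double against PIK3CA mutant) and 534 (HER2 against PIK3CA mutant). With the block they were 1625, 118, 19 and 552 in the last 4 of these and 35 for the interaction. With DESeq2 they were 1774, 1645, 611, 2113 and 916 for the PIK3CA mutant against WT, the double against the HER2 mutant, the double against the PIK3CA mutant, the HER2 against the PIK3CA mutant and the interaction. In the double mutant against the HER2 mutant, 249 genes were higher and 357 lower, and 191 and 441 with upper-quartile scaling. Low counts limit Usp29, Zim1, Peg10, Sgce and Ndn, and the wide spread of the HER2 mutant samples limits its comparisons.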

Other observations

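Gm14029, a non-coding gene on chromosome 2, split the samples as Zrsr1 on chromosome 11 did, and it was picked out after its values were seen. Gm14029 was at 825, 100.3 and 74.9 CPM in WT, 814, 90.1, 203 and 1014 in PIK3CA mutant, 115, 103, 133 and 26 in HER2 mutant and 779.8, 59, 1103, 84.5 and 73.6 CPM in double mutant samples. The 5 samples with Zrsr1 of 159.9 CPM or more were the 5 with Gm14029 of 779.8 CPM or more, and they came from 3 genotypes. Over the 16 samples, which share library preparation and scaling, the correlation of log2 CPM was r = 0.97, the highest of 15580 genes with a mean log2 CPM above 0. It is given as a description of a pair chosen for its likeness.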
